A study of Homo sapiens with 6 samples.

Results

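The sensors and adaptors described here are 10 genes through which a cell detects RNA or DNA that is foreign or out of place: RIGI, IFIH1, DHX58, TLR3, CGAS and ZBP1 as sensors, MAVS, TICAM1 and STING1 as adaptors, and the kinase TBK1. They were taken from a list of symbols, and all 10 were found among the 63241 Ensembl genes of the count files. Of these, 9 passed the filter on low counts, together with 15295 genes in all, and ZBP1 did not. Expression was measured by RNA-seq in MDA-MB-231, an established line of human breast cancer cells without hormone receptors or HER2 amplification, labelled as wild type and treated for 24 h with 5 μM nitidine chloride (NCD), a plant alkaloid, or with 0.1% DMSO, its solvent, as the vehicle control. Each of the 2 groups had 3 libraries. The labels do not say that the libraries came from separate cultures, so p-values measure the spread between these libraries, which may be technical.

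The RIG-I-like receptors are cytosolic helicases that bind double-stranded RNA. RIG-I (gene RIGI) and MDA5 (gene IFIH1) signal through MAVS, an adaptor on the mitochondrial outer membrane, while LGP2 (gene DHX58) lacks the signalling domains and modulates the other receptors. TLR3 senses double-stranded RNA within endosomes, outside the cytosol proper, and signals through TICAM1 (TRIF). cGAS binds DNA and makes a cyclic dinucleotide that activates STING on the endoplasmic reticulum. These routes converge on TBK1, which phosphorylates IRF3 and thereby turns on interferon genes, and many of the sensors are themselves interferon-inducible. ZBP1 binds nucleic acids in the Z conformation and can trigger cell death.

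Library totals ranged from 18223594 to 21629653 counts. NCD replicate 3 stood apart from the other NCD libraries, with a chi-square of its gene counts, per degree of freedom, of 14.4 and 12.9 against replicates 1 and 2, which differed from each other by 2.05. Among the DMSO libraries, replicate 2 gave 15.4 against replicate 1 and 7.88 against replicate 3, and replicates 1 and 3 gave 4.17. For NCD replicates 2 and 3, the number of the cell line in the sample description is not that in the cell line field, which was used here. The 6 markers of the mesenchymal-like state of MDA-MB-231 summed to 7050 to 7490 CPM (read counts scaled to a common library size) with DMSO and to 4640 to 5030 CPM with NCD. All 6 fell by the test given below, as did 34.1% of all tested genes. VIM fell least, to 0.863 times its level with DMSO, and CD44 most, to 0.284 times. The part of these falls in the results below was not tested. The 9 leukocyte markers summed to at most 2.11 CPM with DMSO and 0.885 CPM with NCD, with 5 of them at 0 in every library and at most 1 count for the pan-leukocyte gene PTPRC. The 7 luminal breast markers summed to 8.97 to 9.55 CPM with DMSO and 13.1 to 13.3 CPM with NCD. GATA3, the most abundant, went from a mean of 6.12 to 7.3 CPM and did not pass the test given below (adjusted p = 0.073). EPCAM rose by the same test from 2.7 to 4.01 CPM, a log2 fold change of 0.57 (adjusted p = 0.00998). The sparse FOXA1 averaged 0.172 CPM in the vehicle group against 1.68 CPM after treatment, and its test is not given. ESR1, the oestrogen receptor, went the other way, from at most 7 counts to 0 in every NCD library.

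With NCD, transcripts of 6 of the 9 tested sensors and adaptors rose and those of 2 fell. LGP2, STING, MDA5 and TLR3 rose most, by 2.52 to 6.12 times, cGAS rose 1.80 times and TICAM1 1.52 times, whereas RIG-I and MAVS fell to 0.741 and 0.762 times their level with DMSO. TBK1 did not pass the test, and ZBP1 was close to 0 in both groups. A gene passed at a Benjamini-Hochberg adjusted p below 0.05 in edgeR's quasi-likelihood test over all 15295 genes. By this rule 35.3% of all tested genes were higher and 34.1% lower with NCD. Past an absolute log2 fold change of 1 as well, the fold threshold of the study's methods, 4 members were higher and 0 lower, against 13.5% and 17.5% of all tested genes. The median log2 fold change was 0.85 for the 9 tested members and 0.04 for all tested genes.

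**Figure D1:**
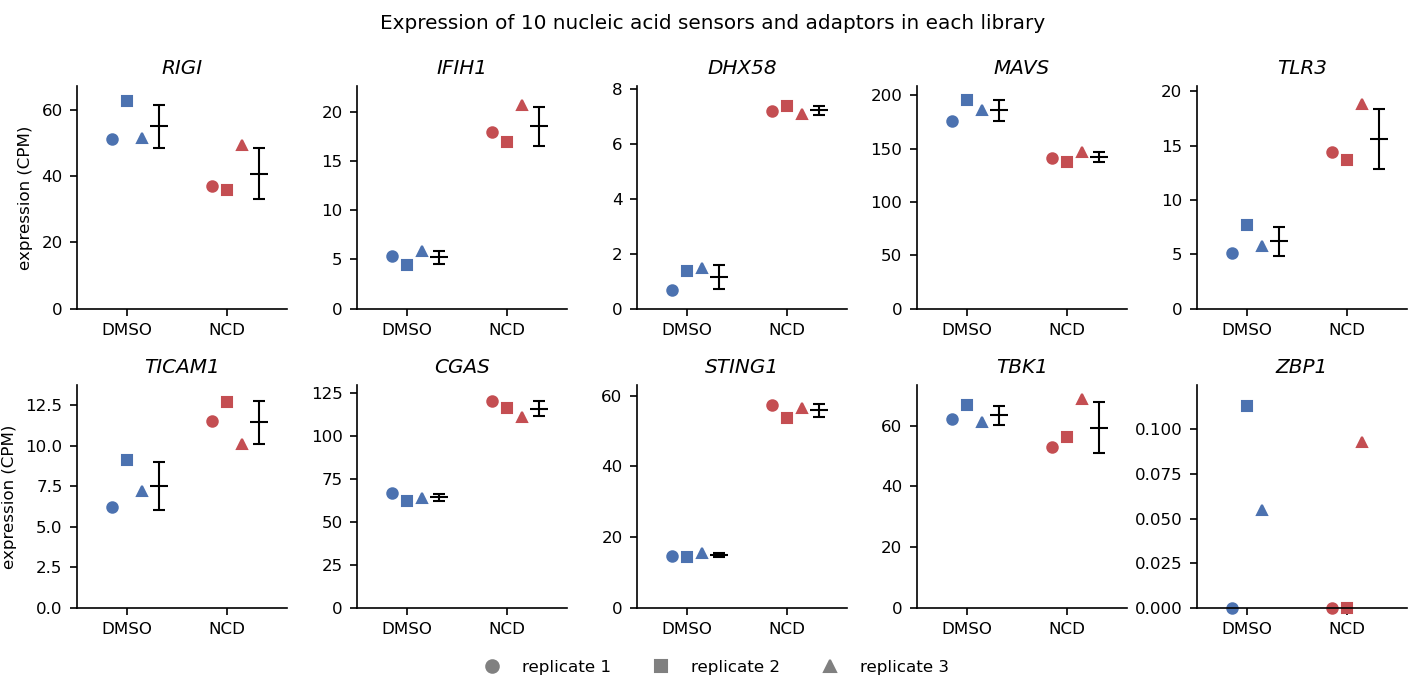
Expression of each sensor or adaptor in CPM (vertical axes, linear from 0, a scale of its own for each gene) in the 3 DMSO and 3 NCD libraries, with the replicate shown by the symbol and the mean ± SD by the black bar (not drawn for ZBP1, which was below the filter). The groups do not overlap for IFIH1, DHX58, TLR3, TICAM1, CGAS and STING1, which were higher with NCD, nor for RIGI and MAVS, which were lower.

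Among the receptors for cytosolic RNA, RIGI (ENSG00000107201; chromosome 9, 32455705 to 32526324, minus strand, GENCODE release 29, GRCh38) had 51.2, 62.5 and 51.4 CPM in the DMSO libraries and 36.9, 35.9 and 49.5 CPM in the NCD libraries. All NCD values lay below all DMSO values, though NCD replicate 3 came within 2 CPM of the lowest of them. The log2 fold change was -0.43 (standard error 0.14, 95% interval -0.74 to -0.12, adjusted p = 0.0186). This call rested on single libraries: the adjusted p was 0.061 without DMSO replicate 2, 0.0513 without NCD replicate 1 and 0.0683 without NCD replicate 2, and 0.000418, with a log2 fold change of -0.61, without NCD replicate 3. With library totals in place of edgeR's TMM scaling the log2 fold change was -0.23 and the adjusted p 0.192.

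IFIH1, which encodes MDA5, the sensor of long double-stranded RNA (ENSG00000115267; chromosome 2, 162267079 to 162318703, minus strand), had 5.36, 4.46 and 5.80 CPM with DMSO and 17.9, 16.9 and 20.7 CPM with NCD. Its lowest NCD value was well above its highest DMSO value. The log2 fold change was 1.83 (standard error 0.13, 95% interval 1.52 to 2.13, adjusted p = 2.78e-06). DHX58, which encodes LGP2 (ENSG00000108771; chromosome 17, 42101404 to 42112733, minus strand), rose most of all members. With DMSO its libraries held 11, 24 and 27 counts (0.662, 1.36 and 1.48 CPM), and with NCD 165, 143 and 152 (7.20, 7.39 and 7.08 CPM). The 3 NCD values lay close together, with a coefficient of variation of 2.17%, and the few counts with DMSO varied by 37.8%. The log2 fold change was 2.61 (standard error 0.23, 95% interval 2.08 to 3.14, adjusted p = 1e-05).

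The mix of these 3 receptor transcripts was compared within each library as shares of their counts per kilobase of exon, a measure that library scaling cannot move. RIGI made up 90.4% ± 1.77 (SD, n = 3) of the mix with DMSO and 62.7% ± 2.70 with NCD. The share of IFIH1 rose from 7.40% ± 1.57 to 24.4% ± 0.914 and that of DHX58 from 2.16% ± 0.784 to 12.8% ± 1.91 (SD, n = 3). No share overlapped between the groups, and the exact two-sided permutation test of 3 against 3 libraries gave p = 0.1 for each, the smallest p that this design allows. The ratio of IFIH1 to RIGI in the same libraries was 0.0892, 0.0609 and 0.0962 with DMSO and 0.413, 0.401 and 0.356 with NCD, a difference of 2.27 on the log2 scale. RIGI thus stayed the most abundant of these receptor transcripts per length in every library, while its lead over the other members narrowed.

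**Figure D2:**
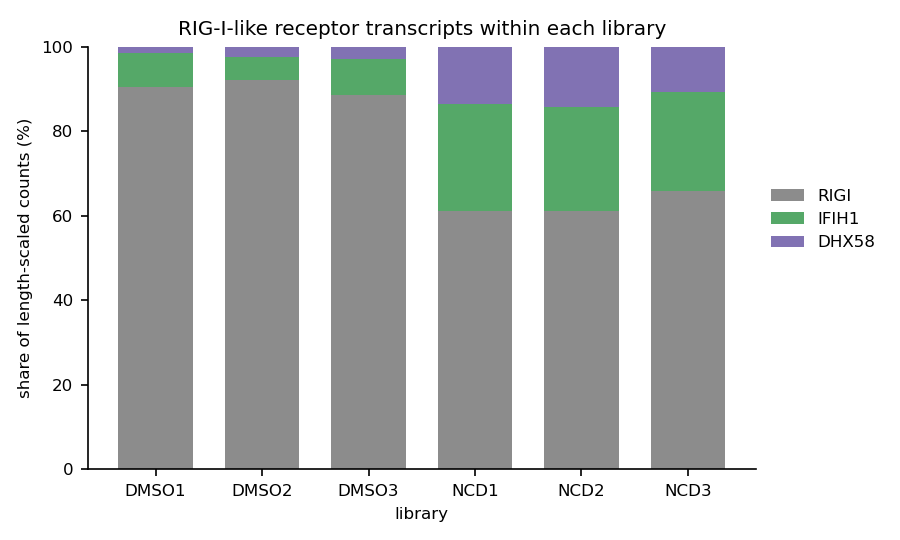
Share in percent of the length-scaled counts of the 3 RIG-I-like receptors (vertical axis, stacked to 100%) in each of the 6 libraries (horizontal axis). RIGI takes 88.6% to 92.1% in the DMSO libraries and 61.2% to 65.9% in the NCD libraries.

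Promoter sequences from RefSeq (GRCh38.p14), from 250 bases before to 50 bases after the annotated gene start, were found for 6 of the 10 members: RIGI, IFIH1, MAVS, TLR3, TICAM1 and TBK1. Both strands were searched for the core of the interferon-stimulated response element (ISRE), taken as the letters GAAA on each side of any 2 bases, and for the gamma-activated sequence, TTCNNNGAA. The ISRE core was present in 3.65% of all 27305 promoters of this length and the gamma-activated sequence in 7.88%. IFIH1 and TLR3 held the ISRE core, TLR3 also held the gamma-activated sequence, and the other 4 promoters held neither, among them that of TICAM1, which also rose. The promoters of IFIH1 and TLR3 are shown for their matches and that of RIGI as the related receptor without one, all 5′ to 3′ on the strand of the gene, with the matched letters in capitals. They lie at chr2:162318635-162318934 on the minus strand, chr4:186068906-186069205 on the plus strand and chr9:32526147-32526446 on the minus strand.

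IFIH1: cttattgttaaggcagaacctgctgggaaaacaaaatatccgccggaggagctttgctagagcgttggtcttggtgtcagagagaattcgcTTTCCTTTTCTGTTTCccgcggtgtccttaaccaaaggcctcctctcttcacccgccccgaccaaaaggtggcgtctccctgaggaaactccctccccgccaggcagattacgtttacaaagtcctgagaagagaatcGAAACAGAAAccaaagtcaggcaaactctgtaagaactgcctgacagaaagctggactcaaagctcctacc

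TLR3: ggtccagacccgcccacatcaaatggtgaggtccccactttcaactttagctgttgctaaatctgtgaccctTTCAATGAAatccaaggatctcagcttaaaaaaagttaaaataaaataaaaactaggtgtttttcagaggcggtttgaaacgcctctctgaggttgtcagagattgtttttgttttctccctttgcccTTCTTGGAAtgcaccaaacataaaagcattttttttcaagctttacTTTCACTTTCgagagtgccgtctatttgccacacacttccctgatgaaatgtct

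RIGI: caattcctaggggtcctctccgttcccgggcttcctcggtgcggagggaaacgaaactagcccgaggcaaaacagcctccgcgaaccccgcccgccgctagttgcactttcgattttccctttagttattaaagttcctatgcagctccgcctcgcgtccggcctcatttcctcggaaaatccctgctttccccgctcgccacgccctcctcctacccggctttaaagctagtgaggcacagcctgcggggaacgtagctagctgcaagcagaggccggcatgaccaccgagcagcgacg

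In IFIH1, 3 matches to the ISRE core were found in the 2 stretches in capitals, since the pair on the opposite strand, at -159 to -150 and -153 to -144 from the gene start, overlap each other. The remaining match lay at -21 to -12 on the strand of the gene. In TLR3 the ISRE core lay across the gene start, on the opposite strand from base -4 to base 6, and the gamma-activated sequence at -178 to -170 and -50 to -42. The RIGI window held no match, which says only that these letters are absent from it. A match describes letters and was not tested for binding.

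TLR3 (ENSG00000164342; chromosome 4, 186069152 to 186088069, plus strand) had 5.12, 7.69 and 5.75 CPM with DMSO and 14.4, 13.7 and 18.8 CPM with NCD. The groups were well apart, and NCD replicate 3 was the highest. The log2 fold change was 1.34 (standard error 0.18, 95% interval 0.93 to 1.74, adjusted p = 0.000145). TICAM1, its adaptor (ENSG00000127666; chromosome 19, 4815932 to 4831704, minus strand), had 6.20, 9.10 and 7.23 CPM with DMSO and 11.5, 12.7 and 10.1 CPM with NCD. The groups did not overlap, but DMSO replicate 2 and NCD replicate 3 came close. Its log2 fold change was 0.61 (standard error 0.16, 95% interval 0.25 to 0.96, adjusted p = 0.00742). The ratio of TLR3 to TICAM1 per kilobase was 0.327 ± 0.00987 (SD, n = 3) with DMSO and 0.555 ± 0.163 with NCD, where replicate 3 alone reached 0.739.

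On the DNA-sensing side both genes rose, STING1 more than CGAS. CGAS (ENSG00000164430; chromosome 6, 73413515 to 73452276, minus strand), which encodes the DNA sensor cGAS, had 66.5, 62.0 and 63.8 CPM with DMSO and 120.0, 116.0 and 111.0 CPM with NCD. Its libraries were close within each group, with coefficients of variation of 3.54% and 3.68%. The log2 fold change was 0.85 (standard error 0.06, 95% interval 0.71 to 0.99, adjusted p = 2.38e-06), just under the fold threshold, and with library totals it was 1.05. STING1 (ENSG00000184584; chromosome 5, 139475534 to 139482935, minus strand), the adaptor that cGAS activates, had 14.7, 14.4 and 15.5 CPM with DMSO and 57.3, 53.7 and 56.6 CPM with NCD. Every NCD library held more than 3 times the highest DMSO value. Its log2 fold change of 1.91 had the smallest p of the members (standard error 0.07, 95% interval 1.74 to 2.08, adjusted p = 6.94e-08). Within libraries the ratio of STING1 to CGAS per kilobase was 0.250 ± 0.0113 (SD, n = 3) with DMSO and 0.522 ± 0.0253 with NCD, again without overlap (exact two-sided permutation test, p = 0.1, the smallest possible). On the opposite strand CGAS overlaps DDX43, which had at most 2 counts in any library.

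MAVS and TBK1, the points on which several sensors converge, did not rise. MAVS (ENSG00000088888; chromosome 20, 3846799 to 3876123, plus strand) had 176.0, 196.0 and 186.0 CPM with DMSO and 141.0, 138.0 and 147.0 CPM with NCD, with no overlap. Its log2 fold change was -0.39 (standard error 0.06, 95% interval -0.53 to -0.25, adjusted p = 0.000402), and -0.20 (adjusted p = 0.0322) with library totals. TBK1 (ENSG00000183735; chromosome 12, 64451880 to 64502108, plus strand) had 62.1, 66.8 and 61.2 CPM with DMSO and 52.9, 56.1 and 68.9 CPM with NCD. NCD replicate 3 lay above all DMSO libraries and the other NCD libraries lay below them. The log2 fold change was -0.10 (standard error 0.10, 95% interval -0.33 to 0.13, adjusted p = 0.421). Without NCD replicate 3 it was -0.23 and passed the test (adjusted p = 0.0165), and with library totals it was 0.10 (adjusted p = 0.432). An antisense gene overlaps TBK1, with at most 4 counts in any library. The strandedness of the authors' counting is not given in the sources used here.

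ZBP1 (ENSG00000124256; chromosome 20, 57603846 to 57620576, minus strand) was nearly undetected, with 0, 2 and 1 counts in the vehicle libraries against 0, 0 and 2 with NCD. The ratio of NCD to DMSO was 0.550 with an exact 95% counting interval of 0.0459 to 4.80, which at this depth leaves the direction of any change open. Intervals of this kind cover counting error only.

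Over all tested genes, the CPM of the groups did not overlap in 37.2% with NCD higher and in 35.3% with NCD lower, against 6 and 2 of the 9 tested members. In bulk RNA, fewer cells expressing a gene and less RNA of it per cell cannot be told apart.

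Over deciles of gene span, the median log2 fold change of tested genes rose from 0.24 in decile 1, the shortest, to 0.43 in decile 4. It then fell to -2.09 in decile 10, the longest. Each member was therefore set beside the median of its decile of span. RIGI, the longest member with 70.6 kb, changed by -0.43 on the log2 scale and the genes of its decile by -0.35. IFIH1 and TBK1, of 51.6 and 50.2 kb, shared a decile with a median of -0.03, and changed by 1.83 and -0.10. MAVS and CGAS, of 29.3 and 38.8 kb, also shared one, with a median of 0.11, and changed by -0.39 and 0.85. For the shorter DHX58, STING1, TLR3 and TICAM1 the decile medians were between 0.39 and 0.43, which left TICAM1, at 0.61, nearest to its own. The part of gene span in these changes was not tested.

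Compared between genes, levels were counts per kilobase of exon scaled to the same sum in every library (TPM). With DMSO the order ran from MAVS at 47.6 ± 4.99 TPM and CGAS at 46.3 ± 0.780 (SD, n = 3), which overlapped, to TBK1 at 40.0 ± 3.83 and RIGI at 38.1 ± 6.38, which overlapped too. The range of MAVS also overlapped those of TBK1 and RIGI, and that of CGAS did not. STING1 followed at 11.6 ± 0.551 and TICAM1 at 8.48 ± 2.09, then IFIH1 at 3.05 ± 0.316 and TLR3 at 2.78 ± 0.745, which overlapped, and DHX58 at 0.919 ± 0.369 TPM. With NCD, CGAS led at 94.5 ± 1.59 TPM without overlap with any other member. STING1 at 49.4 ± 2.99, TBK1 at 42.5 ± 7.83, MAVS at 41.0 ± 3.08 and RIGI at 32.0 ± 7.36 came next, each overlapping its neighbour in this order. TICAM1 at 14.5 ± 1.18 overlapped IFIH1 at 12.4 ± 1.83, and TLR3 at 7.94 ± 1.73 and DHX58 at 6.39 ± 0.163 closed the list of detected members. STING1 thereby moved from the fifth place to the second, with a range that overlapped that of TBK1. The exon length joins all annotated exons of a gene, which for MAVS gives 11.77 kb and lowers its value if shorter transcripts predominate.

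The genes around the sensors were described with 8 lists of 125 genes, of which 111 were tested, 48 rose and 43 fell. With library totals these were 56 and 31. The genes that rose include AIM2 and RSAD2, which passed the filter on low counts through the NCD libraries alone and so had to differ. The counts of each list are to be read against the 35.3% higher and 34.1% lower of all tested genes, or 13.5% and 17.5% past the fold threshold, and no list was tested as a whole. Among 21 regulators of RIG-I, MDA5 and MAVS, all tested, 9 rose and 7 fell, with a median log2 fold change of 0.02. Past the fold threshold, RNF125, a ubiquitin ligase that marks RIG-I for degradation, rose by 1.91 and RNF135 (Riplet), a ubiquitin ligase that activates RIG-I, by 1.35 on the log2 scale. NLRX1, a mitochondrial protein reported to restrain MAVS, rose by 1.79, and USP15, a deubiquitinase that spans 157.1 kb, fell by 2.63. USP15 lies in the top decile of span, in which tested genes had a median of -2.09.

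Of 9 tested genes for other proteins proposed to sense RNA, 6 fell and 2 rose, with a median log2 fold change of -0.29, and 1 was lower and 1 higher past the fold threshold. The helicase DHX15 fell by 1.49 and ZNFX1, a helicase found at mitochondria that binds double-stranded RNA, rose by 1.37. EIF2AK2, the RNA-activated kinase PKR, did not pass the test, with a log2 fold change of 0.05 (adjusted p = 0.697). Of 11 tested genes proposed to sense DNA, 7 fell and 4 rose, with a median of -0.55. Among those that rose, AIM2 passed the filter on low counts through the NCD libraries alone. Those past the fold threshold included the double-strand break repair genes PRKDC at -2.06, XRCC5 at -1.94 and MRE11 at -1.18, and HNRNPA2B1, an RNA-binding protein, at -1.07. PRKDC spans 187.1 kb and XRCC5 98.8 kb, and tested genes in the top decile of span and the one below it had medians of -2.09 and -0.93.

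Of 26 tested regulators of cGAS and STING, 8 rose and 11 fell, with a median log2 fold change of -0.06. ABCC1, an exporter of cGAMP, fell by 2.52, the calcium sensor STIM1, which holds STING in the endoplasmic reticulum, by 2.28, and the cGAS cofactor G3BP1 by 1.05. The channel subunit LRRC8C fell as well, with a log2 fold change of -1.22. ABCC1 and STIM1 span 193.5 and 238.7 kb, in the top decile of span with its median of -2.09, and LRRC8C spans 136.8 kb, in the decile with a median of -0.93. Among 19 genes of TBK1 and IRF signalling, 8 rose and 6 fell, with a median of 0.06. The transcription factors IRF7 and IRF5 rose by 2.49 and 1.96, while the adaptor ubiquitin ligase TRAF3 fell by 1.13 and the kinase MAP3K7 (TAK1) by 1.48. TRAF3 spans 134.0 kb, in the decile with a median of -0.93, and MAP3K7 73.5 kb, in the decile with a median of -0.35. IRF3, the direct substrate of TBK1, rose by 0.87 (adjusted p = 2.92e-06), from 40.6 ± 0.975 to 74.4 ± 2.77 CPM (SD, n = 3).

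Of 10 genes for the folding and processing of endosomal Toll-like receptors and their adaptors, 5 rose and 3 fell, with a median log2 fold change of 0.59. SARM1 alone was past the fold threshold at 1.44. Of 9 tested partners of ZBP1 and genes of cell death, 6 rose and 3 fell, none by more than the fold threshold, with a median of 0.51. RIPK3, the kinase through which ZBP1 triggers necroptosis, had 1 count in NCD replicate 1 and 0 in every other library. ADAR, the enzyme that edits double-stranded RNA and keeps MDA5 and ZBP1 from sensing it, rose from 134.0 ± 10.3 to 225.0 ± 11.4 CPM (SD, n = 3), a log2 fold change of 0.75 (adjusted p = 1.55e-05).

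**Figure D3:**
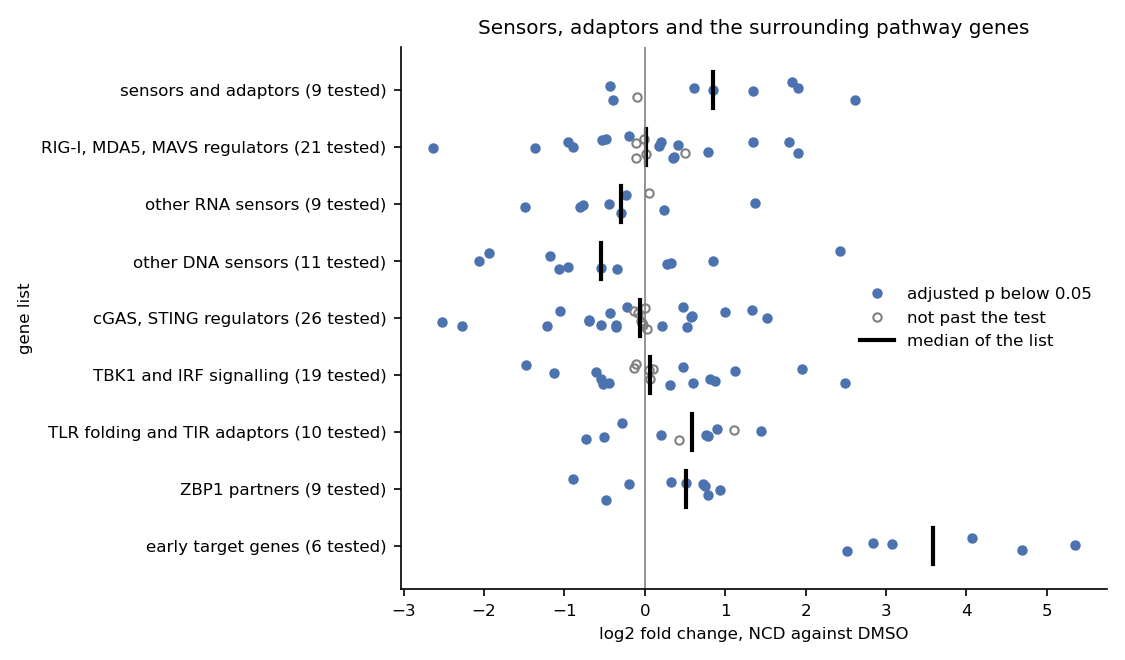
Log2 fold change of NCD against DMSO (horizontal axis) for each tested gene of the sensors and adaptors and of the 8 surrounding lists (vertical axis, with the number tested). Filled points passed the test and the black bars are list medians. These run from -0.55 for other DNA sensors to 0.59 for the Toll-like receptor genes and 0.85 for the sensors and adaptors. The early targets, which include RSAD2, lie above them.

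Of 12 genes known as early targets of sensor signalling, 6 passed the filter on low counts. RSAD2, an antiviral enzyme, passed it through the NCD libraries alone, with 2, 0 and 0 counts in the vehicle group against 41, 41 and 33, so it had to differ. The others, ISG15 and those named next, were detected in every library and rose past the fold threshold. On the log2 scale, OASL rose by 4.69, IFIT2 by 4.07, IFIT3 by 2.84 and IFIT1 by 2.51 (each with an adjusted p of at most 1.35e-08). The interferon genes themselves were scarce. IFNB1 and IFNL2 had 0 counts in every library, which allows up to 3 counts, or 0.131 to 0.181 CPM, per library. The chemokine genes CCL5 and CXCL10 were below the filter, with 6, 1 and 3 counts against 7, 5 and 4 for CCL5, and 0 in each vehicle library against 3, 0 and 1 for CXCL10. IFNL3 had at most 4 counts. IFNL1 was at 0 throughout the vehicle group and at 7, 10 and 6 counts with NCD, below the filter on low counts.

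The genes whose profile over the 6 libraries, centred on the DMSO mean, differed least from that of RIGI were AKAP12, EPRS1, RBM27, PPWD1 and ZNF281. Their root-mean-square differences from RIGI on the log2 CPM scale were 0.0147 to 0.0310, and their log2 fold changes were between -0.44 and -0.41. With 6 libraries in 2 groups, many genes share such a profile.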

How the data were processed

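RNA-seq values for 3 DMSO and 3 NCD libraries of MDA-MB-231 were used. Per the labels and the study's methods, the authors aligned reads with HISAT2 and deposited expected counts per Ensembl gene estimated with RSEM, unnormalised and per library, on GRCh38. The annotation release is not given in the sources used here. Each file also held 25 lines of stray text without a count, which were skipped. Symbols came from a gene name table and coordinates and exon lengths from GENCODE release 29, in which 58228 identifiers, carrying at least 99.44% of the counts of any library, were found.

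Expected counts were rounded, filtered with filterByExpr and scaled by TMM (factors 0.912 to 1.09), and NCD was compared with DMSO by glmQLFit and glmQLFTest of edgeR 4.0.16 in R 4.3.3, after a check on simulated data. Few genes changed in the simulated data, unlike here, so the check does not cover the scaling under such wide changes. Standard errors are the absolute log2 fold change over the square root of F. CPM use TMM-scaled library sizes. The study's methods name DESeq2, a P threshold of 0.05 and a fold threshold of 1 on the log2 scale. DESeq2 1.42.0 (read at adjusted and at unadjusted p), limma-voom (limma 3.58.1), library totals, other filters, unrounded counts, a replicate block and fits without each library were alternatives. Permutation tests used scipy 1.17.1 and figures matplotlib 3.10.9.

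The members and gene lists were chosen with earlier results of these data known, so no test was made over a list. All members were named, and from each list at most the 4 genes past the fold threshold with the smallest p. EIF2AK2, IRF3, ADAR, RIPK3, ESR1, GATA3, EPCAM, FOXA1, VIM, PTPRC and all early targets were added for their roles. CD44 was named as the mesenchymal marker that fell most. AIM2, IFI16, PYHIN1, MNDA, TLR7, TLR8 and TLR9 were named as other observations, outside this rule. No protein sequences were used here.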

Additional observations from a re-analysis of the deposited data

How the results depend on the processing

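IFIH1, DHX58, TLR3, TICAM1, CGAS, STING1 and MAVS kept their direction and their side of the adjusted p threshold under all 14 alternatives, with log2 fold changes of 1.72 to 2.03, 2.32 to 2.81, 1.17 to 1.53, 0.46 to 0.80, 0.80 to 1.05, 1.87 to 2.11 and -0.46 to -0.20. With library totals CGAS, at 1.05, also passed the fold threshold, which made 5 members past it against 4. RIGI fell short of the adjusted p threshold with library totals (-0.23), and without each library its value ranged from -0.61 to -0.34. TBK1 changed sign with library totals (0.10) and lay between -0.23 and -0.04 without each library. The count of members that fell was 1 with library totals and ranged from 1 to 3 without each library, against 2. Library totals move the median change over all tested genes from 0.04 to 0.23 on the log2 scale. The cause of the shifts without single libraries, and what sets NCD replicate 3 and DMSO replicate 2 apart within their groups, was not tested.

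The main test did not pair libraries by their replicate numbers, and the labels do not give a pairing. Deviations of same-numbered libraries from their group means correlated at 0.216, -0.185 and 0.0226. DMSO replicates 1 and 3 matched the NCD library of the same number best, and DMSO replicate 2 matched NCD replicate 3 best. With means of 3 libraries this cannot settle whether they were paired. With the replicate number as a block no member's call changed, and RIGI was at -0.44 (adjusted p = 0.0304). Depth limits ZBP1, RIPK3 and the interferon genes, which a few counts per library cannot measure.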

Other observations

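AIM2, a sensor of cytosolic DNA that assembles an inflammasome, was sparse, with 6, 1 and 5 counts in the vehicle group against 19, 26 and 35 with NCD. It passed the filter on low counts through the NCD libraries alone, so it had to differ and its test is not given. It was singled out after its values were seen. IFI16, a nuclear DNA sensor of the same family, had a log2 fold change of 0.32 (adjusted p = 0.0447), and the other family members PYHIN1 and MNDA had 0 counts in every library. The endosomal receptors for single-stranded RNA and for DNA were scarce: TLR7 and TLR8 had at most 1 count in any library, and TLR9 at most 9.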
